A study of Mus musculus with 2 samples.

Results

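RAW264.7 is an established mouse macrophage line, and the genes described here are 10 genes of iron handling in it, read after treatment with vehicle control or with IR-61. They are *Slc11a1*, *Slc11a2*, *Tfrc*, *Slc40a1*, *Fth1*, *Ftl1*, *Hmox1*, *Ireb2*, *Aco1* and *Lcn2*, chosen by name, and all 10 were found among the 20655 genes named on the array, with 15 probes in all. The gene microarray compared 1 vehicle culture with 1 culture given IR-61, a near-infrared cyanine dye that collects in mitochondria, both for 24 h. The stated dose was 10 μM. The line comes from an ascites tumor that Abelson murine leukemia virus induced in a male adult mouse of strain BALB/c, and the medium held fetal bovine serum in both groups. BALB/c carries an allele of *Slc11a1* whose protein does not work, which limits the line as a model of that transporter, although the transcript is made and read. Each condition had 1 array, so the error between cultures is unknown and no test or p-value is given.

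Macrophages take up iron bound to transferrin, through the transferrin receptor, and iron from the heme of engulfed red cells. Iron is stored in ferritin, a shell of heavy and light chains, or leaves the cell through ferroportin, the only known iron exporter of mammals. Iron regulatory proteins bind hairpins in the transcripts of these genes when iron is scarce, so that much of the control acts on translation and on transcript stability, while inflammation is known to lower ferroportin and to raise lipocalin 2.

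The region around the start of transcription is shown for 2 genes, *Slc11a1*, which had the lowest difference of the 10 genes, at 1.47-fold lower and thus within 1.5-fold, and *Lcn2*, which had the second highest. The table of mouse promoters held 7 of the 10 genes. *Slc40a1*, *Slc11a2* and *Hmox1* were not among them. The sequences are from RefSeq, build GRCm38.p6, 250 bases before to 50 bases after the start, written 5′ to 3′ on the strand of the gene. Capitals mark matches to motifs. The region of *Slc11a1* was chr1:74374953-74375252 on the plus strand and that of *Lcn2* was chr2:32387690-32387989 on the minus strand.
Slc11a1: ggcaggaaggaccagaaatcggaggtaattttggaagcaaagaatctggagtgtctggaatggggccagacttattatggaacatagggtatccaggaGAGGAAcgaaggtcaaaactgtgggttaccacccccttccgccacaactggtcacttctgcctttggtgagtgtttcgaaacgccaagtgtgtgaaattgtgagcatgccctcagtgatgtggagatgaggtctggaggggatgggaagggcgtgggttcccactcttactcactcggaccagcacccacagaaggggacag
Lcn2: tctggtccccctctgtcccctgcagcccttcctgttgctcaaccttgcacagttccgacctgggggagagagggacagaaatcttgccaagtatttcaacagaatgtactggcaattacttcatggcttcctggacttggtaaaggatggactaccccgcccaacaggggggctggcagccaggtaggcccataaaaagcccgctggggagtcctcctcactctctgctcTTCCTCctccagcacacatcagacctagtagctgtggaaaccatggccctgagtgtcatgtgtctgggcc
Both strands were searched for GAGGAA, the core bound by the myeloid factor PU.1, for TGACNNNGC, the antioxidant response element, and for ACGTG, the core of the hypoxia response element. *Slc11a1* held 1 match, GAGGAA, beginning 152 bases before the start. *Lcn2* also held 1 match, TTCCTC, which is the same core on the opposite strand, beginning 20 bases before the start. No match of the antioxidant or hypoxia pattern was found in either region. Of 32851 promoter regions of this length in the table, 28.3% held the PU.1 core, 12.4% the antioxidant pattern and 19.6% the hypoxia core, so a match here is common.

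Both arrays shared 1 single-colour Agilent design and 1 slide. The log2 signal of each probe was scaled by subtracting the 75th percentile of all probes on that array, 10.30 with vehicle and 10.79 with IR-61. Differences are on this scaled log2 scale, with positive values higher in IR-61. A gene takes its brightest probe. Of 20655 genes, 16885 were well above background on both arrays, with a median difference of 0.10, with 61.2% of them above 0 and with 95% of them between −0.81 and 0.93. By 2-fold or more, 336 genes were higher and 235 lower, and 249 and 295 with scaling by the array median. Some probes were printed several times on each array, and the expected SD given with a difference is the one their spots predict at the signal of the probe. It covers noise within an array and not the difference between cultures. Of 8 macrophage markers 7 had named probes and all 7 were well above background on both arrays, among them *Adgre1*, *Csf1r* and *Itgam*. Most named markers of other cell types were also read above background, among them all 4 named in each of the B cell, neutrophil and fibroblast lists. *Cd3g* of the T cell list and *Epcam* and *Cdh1* of the epithelial list were not. *Col1a1* of the fibroblast list had signals of 27147 with vehicle and 58670 with IR-61. Being above background thus did not set the macrophage markers apart. The 7 macrophage markers had a median difference of −0.04, with 3 above 0 and 4 below, and ranged from *Spi1* at −0.83 to *Adgre1* at 1.03. Their summed signal relative to the 75th percentile of the array was 153.0 with vehicle and 206 with IR-61, and its rise lay mostly in *Adgre1*. The same sum moved from 0.688 to 0.383 over 4 B cell markers and from 34.2 to 46.9 over 4 fibroblast markers. It moved from 1.65 to 1.72 over 4 T cell markers and from 0.207 to 0.151 over 4 epithelial markers. Their part in the results was not tested.

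Among the 10 iron handling genes the largest difference was in export. *Slc40a1*, which encodes ferroportin, was 4.27-fold higher with IR-61, whereas the genes of ferritin, heme oxygenase and the iron regulatory proteins lay within 1.5-fold. In such bulk samples a lower signal from fewer cells that make a transcript and from less of it per cell cannot be told apart. All 10 genes were well above background on both arrays. Of these genes 1 of 10 was higher by 2-fold or more, against 1.99% of all measured genes, and 0 of 10 were lower by 2-fold or more, against 1.39%. At a limit of 1.5-fold 2 of 10 were higher, *Slc40a1* and *Lcn2*, against 9.79%, and 0 of 10 lower, against 5.69%. The median difference of the 10 genes was −0.04, and that of the 9 genes without *Slc40a1* was −0.10, against 0.10 for all measured genes. The plot of every probe on both arrays shows these values, and that of the differences sets them against the expected spread.

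**Figure D1:**
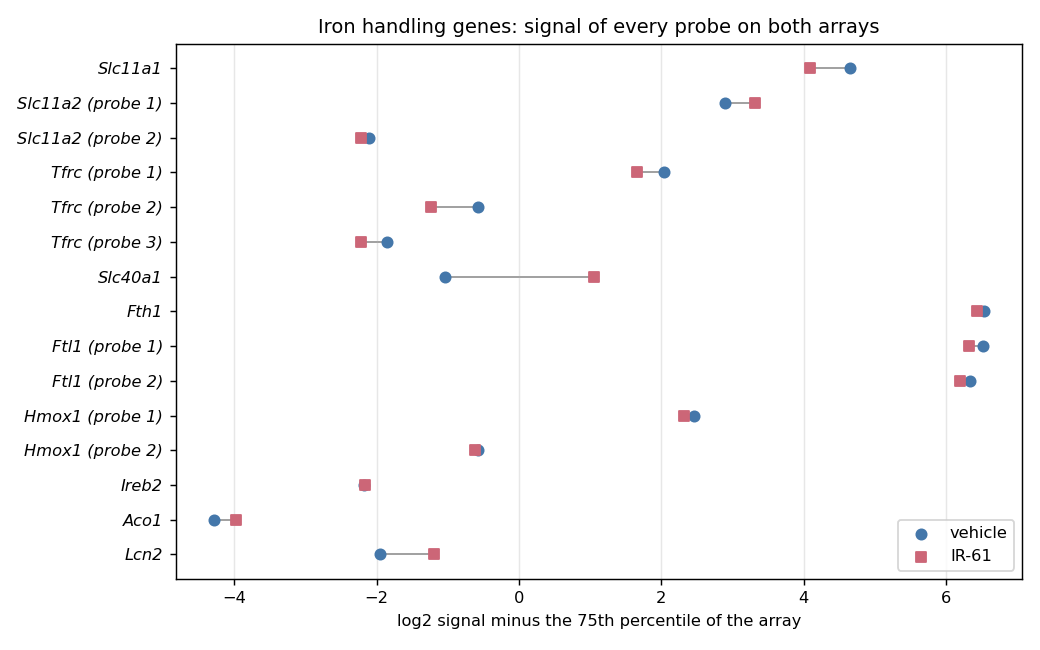
Log2 signal minus the 75th percentile of the array for each of the 15 probes of the 10 genes, with circles for vehicle and squares for IR-61, 1 array each. *Slc40a1* has the widest gap, from −1.03 to 1.06. The place of one probe against another says nothing about levels, since probes differ in brightness.

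The exporter *Slc40a1* was read by 1 probe, printed as 1 spot per array. Its signal was 617 with vehicle and 3692 with IR-61, and the lowest signals among probes well above background were 12.8 and 15.0, so both values were far from background. In the unprocessed image the median pixel of the spot was 711 with vehicle, over a local background of 19.0, and 3976.5 with IR-61, over a local background of 23.0. On the scaled log2 scale the levels were −1.03 and 1.06, a difference of 2.09 with an expected SD of 0.188. The difference was 11.1 times that SD, and it ranked 14 from the top of 16885 measured genes. Spots around it did not share it. The median difference of 188 spots within 10 rows and 5 columns was 0.08. No second probe for *Slc40a1* was named, so a check by another probe was not possible.

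The rest of the export group showed values nearer to those of all genes. Of the 7 genes listed, *Slc40a1* among them, 6 were measured on both arrays, with a median of 0.40. All 6, again with *Slc40a1*, were above 0, as were 61.2% of all measured genes. With *Slc40a1* counted, 5 of 6 were above the median of all genes. *Flvcr1*, which exports heme, had signals of 23129 with vehicle and 47743 with IR-61 and a difference of 0.56. *Cp*, the ferroxidase ceruloplasmin that works with ferroportin, had the lowest value, 0.03, with an expected SD of 0.229. *Hamp2* was at 0.17 and *Heph* at 0.38, each with an expected SD of 0.229. A dimmer measured probe of *Heph* was at −0.002. *Hamp*, which encodes hepcidin, the hormone that removes ferroportin from the cell surface, was close to background, with signals of 15.2 and 28.4, and its difference of 0.41 was below its expected SD of 0.456. *Flvcr1*, *Hamp*, *Hamp2* and *Heph* were named after their values were seen.

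**Figure D2:**
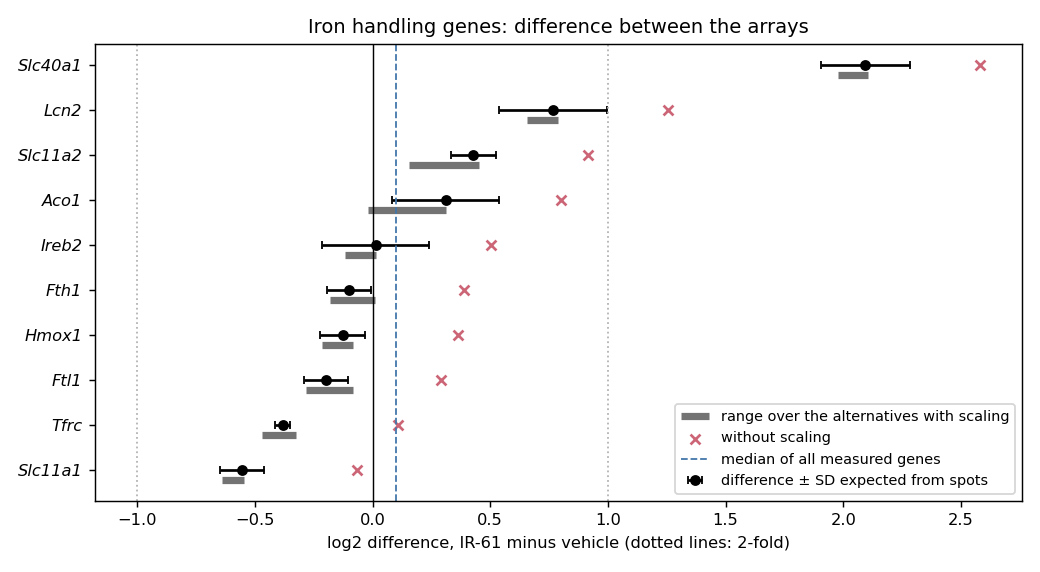
Log2 difference, IR-61 minus vehicle, of the 10 genes (black points, with bars for the SD predicted from repeated spots), the range over the alternatives that scale the arrays (grey bars) and the value without scaling (crosses). *Slc40a1* at 2.09 is the single gene past the 2-fold line at 1 and *Slc11a1* at −0.56 is the lowest, while the dashed line gives the median of all measured genes, 0.10.

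The uptake genes had differences of both signs. *Tfrc*, the transferrin receptor, was read by 3 probes. Its brightest probe was printed 10 times and gave a mean scaled log2 signal of 2.04 ± 0.08 (SD over 10 spots) with vehicle and 1.65 ± 0.05 (SD over 8 spots, after 2 with an outlier flag were left out) with IR-61. The spots with vehicle lay between 1.93 and 2.19 and those with IR-61 between 1.60 and 1.75, so the spots of the arrays did not overlap. The difference was −0.38, a 1.30-fold lower signal, and the remaining probes gave −0.65 and −0.37. All 3 probes thus lay below 0. Without scaling the brightest probe gave 0.11, because the unscaled IR-61 array was brighter by 0.49 on the log2 scale as a whole.

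*Slc11a2* encodes the transporter DMT1, which moves ferrous iron out of endosomes, and its probes disagreed. The brighter probe had signals of 9356 with vehicle and 17660 with IR-61 and a difference of 0.43 with an expected SD of 0.094. The dimmer probe had signals of 293 and 380.0 and a difference of −0.12 with an expected SD of 0.229. The brighter probe was thus higher by more than its expected spread and the dimmer was not distinguishable from 0. Transcripts of this gene are known to end in forms with and without the iron-responsive hairpin, and which of them each probe reads was not analysed here.

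*Slc11a1*, or Nramp1, pumps metals out of the phagosome and is a gene of macrophages. Its single probe had signals of 31653 with vehicle and 30217 with IR-61, and the scaled levels were 4.65 and 4.09. The difference of −0.56, a 1.47-fold lower signal, was 5.88 times its expected SD of 0.094 and the lowest of the 10 genes. It stayed below 0 under all 10 alternatives, at −0.07 without scaling. That unscaled value is smaller than the expected SD, so most of the difference came from the scaling. *Spi1*, which encodes PU.1, had a difference of −0.83 on the same arrays. The PU.1 core lies in the region printed for *Slc11a1*, and also in those of *Lcn2* and *Ireb2*, whose differences were 0.77 and 0.01. The part of *Spi1* in these values was not tested.

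The ferritin genes had small differences. *Fth1*, the ferritin heavy chain, had signals of 116944 with vehicle and 153071 with IR-61, which scaling turned into levels of 6.53 and 6.43 and a difference of −0.10. *Ftl1*, the light chain, was read by 2 probes, with differences of −0.20 and −0.13. For both chains these sizes are between 1.06 and 2.10 times the expected SD of 0.094, and without scaling they were 0.39 and 0.29 for the brightest probes. Quantile normalization and the deposited log2 values put *Fth1* at 0.008. Ferritin genes have many processed pseudogenes, and binding of such transcripts to these probes was not analysed here. *Ncoa4*, the receptor that carries ferritin to the lysosome, had signals of 56497 with vehicle and 124906 with IR-61 and a difference of 0.66.

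Heme breakdown gave small values. *Hmox1* encodes the inducible heme oxygenase, which frees iron from heme and is a well known target of the oxidant-responsive factor NRF2 and its heme-sensing rival BACH1. Its brighter probe had signals of 6915 with vehicle and 8882 with IR-61, a scaled difference of −0.13 with an expected SD of 0.094. Its dimmer probe gave −0.04. Without scaling the brighter probe gave 0.36. *Hmox1*, *Fth1*, *Ftl1* and *Slc40a1* are all known NRF2 targets, and on the same arrays their differences were −0.13, −0.10, −0.20 and 2.09. *Blvrb*, a biliverdin reductase, had the highest difference of the 4 heme breakdown genes, 0.43. Of the regulators, *Nfe2l2*, which encodes NRF2, had a difference of −0.30 and *Bach1* of 0.41. The part of NRF2 and BACH1 in the values of these genes was not tested.

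The iron regulatory proteins differed little. *Ireb2* encodes IRP2, which is broken down when iron is plentiful, and its signals of 280.2 with vehicle and 396.7 with IR-61 gave a scaled difference of 0.01 with an expected SD of 0.229. *Aco1* encodes IRP1, which becomes the cytosolic aconitase when it holds an iron-sulfur cluster. It was the dimmest of the 10, with signals of 64.9 and 113.0 and a difference of 0.31, 1.36 times its expected SD of 0.229. With normexp background correction *Aco1* was at −0.02 and *Ireb2* at −0.12, so the sign of neither is settled. *Fbxl5*, the iron-sensing ubiquitin ligase subunit that marks IRP2 for breakdown, had a difference of −0.49. Its signals were nearly equal, 1357.5 with vehicle and 1357.6 with IR-61, so this difference came from the scaling.

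*Lcn2*, lipocalin 2, binds bacterial siderophores and withholds their iron, and is an inflammation-induced protein of macrophages and neutrophils. Its single probe had signals of 325 with vehicle and 777 with IR-61, the scaled levels were −1.96 and −1.19, and the difference was 0.77, a 1.70-fold higher signal. This is 3.35 times its expected SD of 0.229 and rank 792 from the top of the measured genes. It was between 0.66 and 0.79 under the alternatives with scaling and 1.26 without. The other two genes of siderophore binding were also above 0, the lipocalin receptor gene *Slc22a17* at 0.62 and *Bdh2*, which encodes an enzyme linked to the mammalian siderophore, at 0.31. Of 5 neutrophil markers 4 had named probes, all 4 were well above background and above 0, where 61.2% of all measured genes also lay, with a median of 0.51 and with a summed signal relative to the 75th percentile of 9.45 with vehicle and 11.4 with IR-61. *S100a9*, with signals of 16.5 and 35.8, and *Mpo*, with 33.2 and 72.6, were dim. Their differences of 0.63 and 0.64 were 1.38 and 1.70 times their expected SD. *S100a8* was at 0.40, 4.22 times its expected SD, and *Elane* at 0.17, 1.79 times. The part of neutrophil markers in the value of *Lcn2* was not tested.

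**Figure D3:**
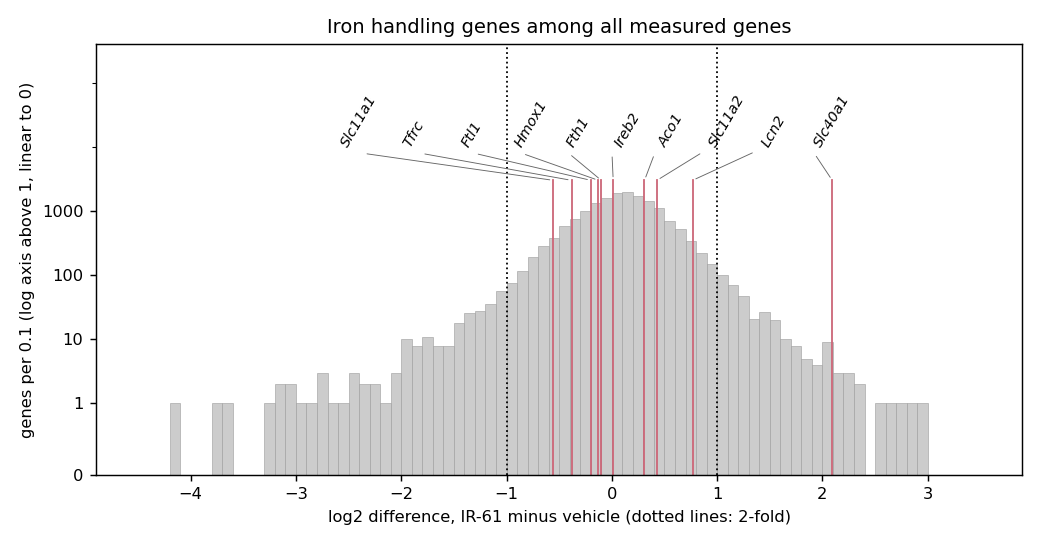
Number of genes per 0.1 of log2 difference, IR-61 minus vehicle, over 16885 measured genes (grey, log axis above 1), with a red line for each of the 10 genes. *Slc40a1* stands at rank 14 from the top, while the other 9 genes fall inside the 2-fold limits drawn as dotted lines.

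The wider list of 55 iron genes, ordered by role, held the 10 genes and 45 others. All 55 were found on the array and 54 were measured on both arrays, with *Flvcr2* not well above background with vehicle. *Slc40a1* was the only one of the 54 past 2-fold, against 1.99% of all measured genes higher and 1.39% lower, so the share of the list past 2-fold was no higher than that of all genes. At 1.5-fold or more 7 of 54 were higher, against 9.79% of all measured genes, and 3 of 54 were lower, against 5.69%. The median difference of the 54 was 0.16, and of the 44 measured genes outside the 10 it was 0.17, against 0.10 for all genes. Of the 54 genes 34 were above 0, against 61.2% of all measured genes. The other 20 were below 0, and 16 of these 20 were above 0 without scaling.

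Within this list the genes above 1.5-fold came from several roles. *Hfe*, a partner of the transferrin receptors in iron sensing, was 1.85-fold higher, with signals of 6080 and 15820 and a difference of 0.89. *Cpox*, a late enzyme of heme synthesis, was 1.72-fold higher and *Ncoa4* 1.58-fold. Named after their values were seen, *Slc39a8* and *Slc22a17* were each 1.53-fold higher. *Slc39a8* encodes a metal importer of the ZIP family. These join *Slc40a1* and *Lcn2* to make up the 7.

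The 3 genes lower by 1.5-fold or more were *Steap4*, *Slc25a37* and *Alas1*. *Steap4*, a metalloreductase, had signals of 38.2 and 31.8 and a difference of −0.75 with an expected SD of 0.456, so its value rests on dim spots. *Slc25a37* encodes mitoferrin 1, which brings iron into mitochondria, and had a difference of −0.66 with its second probe at −0.49. *Alas1*, the first enzyme of heme synthesis, named after its value was seen, had a difference of −0.62 with its second probe at −0.19. The 14 genes of mitochondrial iron, iron-sulfur clusters and heme synthesis had a median of −0.18. Among the 14, 6 were above 0, against 61.2% of all measured genes, and 8 below. Their range ran from *Slc25a37* to *Cpox* at 0.79.

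**Figure D4:**
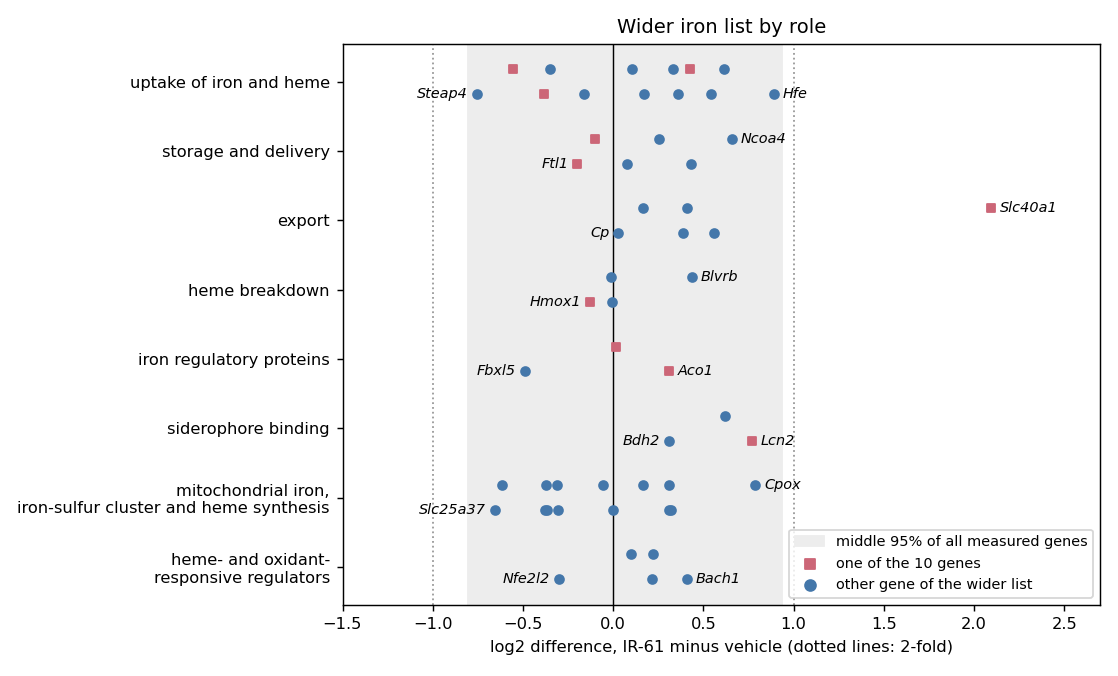
Log2 difference, IR-61 minus vehicle, of the 54 measured genes of the wider iron list, grouped by role, with squares for the 10 genes and circles for the rest, and grey for the middle 95% of all measured genes. The lowest and highest gene of each role are named, and *Slc40a1* in the export row, at 2.09, is the single point beyond the 2-fold lines at −1 and 1.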

How the data were processed

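The members and lists were chosen with earlier results of these data known. The authors deposited the intensity of each spot of 2 Agilent arrays, background-subtracted and detrended by Feature Extraction 11.0.1.1 per the file headers, while the processing notes of the submitters name 11.0.0.1, and a table of log2 values whose normalization is not given in the sources used here. Outlier-flagged and control spots were left out here, log2 intensities were averaged within a probe, and every array was set relative to its own 75th percentile. No spot was saturated. Probes were named through RefSeq accessions of GRCm38.p6, from which symbols alone were taken, since the array design is on another build, and 27224 of 39419 probes matched. Genes named are the 10 members and, in the wider list, those past 2-fold and the highest and lowest of each role, with exceptions marked where they stand. The spread between spots came from those of the 399 probes printed several times that kept at least 5 spots on both arrays and were well above background. The steps were tested on simulated data. The number of arrays limits the precision. The alternatives were 5 other scalings, normexp, the deposited log2 values, the mean over probes, outlier spots kept, no filter on dim probes, and 1.5-fold and 3-fold limits. Python 3.11.15, numpy 2.4.6, pandas 2.3.3, matplotlib 3.10.9, R 4.3.3 and limma 3.58.1 were used.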

Additional observations from a re-analysis of the deposited data

How the results depend on the processing

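No paired analysis was possible because vehicle and IR-61 were read on a single array each. A difference counted as unmoved within the SD expected from spots, and a count within 1.5 times. Leaving out the scaling adds 0.49 to every log2 difference, so that the median of all genes moved from 0.10 to 0.59. Without scaling *Slc40a1* was at 2.58, the median of the 10 genes was 0.44 with 2 of 10 past 2-fold (*Lcn2* at 1.26 joining), that of the wider list was 0.65 with 9 genes past 2-fold, and 2228 of all genes passed it. Relative to the median of all genes *Slc40a1* lay between 1.99 and 2.06 under all alternatives on the values. Normexp gave 1.98 for *Slc40a1*, 0.061 for the median of the wider list and 273 genes past 2-fold. It was run on the median signal of each spot with an offset of 50, and 4 spots of the IR-61 array whose local background was above their signal were given the median background, a choice made after seeing the data. Without the filter on dim probes 1361 genes passed 2-fold. At 1.5-fold 2 of the 10 genes, 10 of the wider list and 2613 of all genes passed, and at 3-fold 114 of all genes. Of the calls past 2-fold 58.8% were higher, and 45.8% with the array median, 52.9% with the 75th percentile over detected probes, 47.9% with quantile normalization, 46.4% with loess, 48.6% with the deposited log2 values, 45.4% with normexp, 67.7% without the filter and 96.8% without scaling. Besides *Slc40a1*, *Slc11a1*, *Slc11a2* and *Lcn2* kept their sign under all 10 alternatives. For *Slc11a2* this holds for the brighter probe and for the mean over probes, 0.16, while its dimmer probe was at −0.12. *Tfrc*, *Ftl1* and *Hmox1* changed sign without scaling, *Aco1* with normexp, and *Fth1* and *Ireb2* under 3 alternatives each.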

Other observations

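Further lists close to iron biology were added with the values of the 10 genes known, and are given as values. Among 7 genes of iron and heme recycling from red cells, *Hpx*, which encodes the heme-binding protein hemopexin, was 2.26-fold higher with IR-61, with signals of 118 with vehicle and 373 with IR-61 and a log2 difference of 1.17, against 1.99% of all measured genes higher by 2-fold or more. *Hp*, which encodes the hemoglobin-binding haptoglobin, was 1.52-fold higher. *Spic*, the factor of iron-recycling macrophages that heme is known to induce, had a difference of −0.54 and *Vcam1* of −0.12. The signals of *Spic* were dim and nearly equal, 132 with vehicle and 127 with IR-61, so its difference came mostly from the scaling. The 7 genes had a median of −0.12.

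Of 11 genes of lipid peroxidation defence and ferroptosis, a form of cell death that depends on iron, 10 were measured on both arrays and their median was −0.32. *Lpcat3*, which puts polyunsaturated fatty acids into phospholipids, was 2.33-fold lower, with signals of 1630 and 983 and a difference of −1.22, against 1.39% of all measured genes lower by 2-fold or more. *Acsl4*, which activates such fatty acids, had a difference of 0.50. *Gpx4*, the glutathione peroxidase of lipid peroxides, had −0.23, *Slc7a11*, a subunit of the cystine importer, −0.47, and *Aifm2*, which reduces coenzyme Q, −0.63 with both of its probes. The signals of *Slc7a11* were dim and nearly equal, 86.2 with vehicle and 87.5 with IR-61. *Gclc* was at 0.34 and *Gclm* at −0.25. Of the 10 measured genes 2 were above 0, against 61.2% of all measured genes, and 8 below. Leaving out the scaling adds 0.49 to each difference, which puts *Gpx4*, *Slc7a11* and *Gclm* above 0 and leaves *Lpcat3* and *Aifm2* below. Of 7 metal-responsive and metal transport genes none passed 2-fold, against 1.99% of all measured genes higher and 1.39% lower, so that none of 7 is close to the share of all genes. The metallothionein genes *Mt1* and *Mt2*, known targets with *Slc40a1* of the metal-sensing factor MTF-1, had differences of −0.02 and −0.44. *Mtf1*, which encodes that factor, was the highest of the 7 at 0.51, and its dimmer probes gave 0.07 and 0.39. The part of MTF-1 in these values was not tested.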
